A study of Mus musculus with 4 samples.

Results

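The genes described here are the ligands, R-spondins, receptors, secreted antagonists and nuclear effectors of WNT signalling, measured in the whole mandible of the mouse embryo at E11.5. The set holds every gene whose current symbol begins with Wnt, Fzd, Sfrp, Dkk or Rspo and a digit, together with the named genes Lrp5, Lrp6, Axin1, Axin2, Lef1, Tcf7, Tcf7l1, Tcf7l2, Wif1 and Frzb. The array held 50 of the 52 mouse genes that this rule names, out of 16637 named genes in all, and Fzd10 and Tcf7l1 were not analysed here. One of the 50, Fzd10os, is a transcript from the strand opposite Fzd10 and was kept because its symbol meets the rule. The 50 genes had 61 probes, and each gene was represented by the probe with the highest mean over the 4 arrays.

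The samples were 2 wild-type control mandibles and 2 mandibles with conditional Bmp4 overexpression, all on a C57BL/6 background. Expression of Bmp4, which encodes a bone morphogenetic protein (BMP) that cells secrete, had been induced with doxycycline for 24 hours. Each sample was labelled with Cy5 on a one-colour array that gave a normalised log2 intensity for 29922 probes. The sources used here do not say whether the controls received doxycycline, in which cells the transgene was driven, or whether the samples of a group came from separate embryos. Effects of the drug and of Bmp4 therefore cannot be told apart, and p-values reflect the spread between arrays alone, which may be technical.

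WNT proteins are secreted, lipid-modified ligands that bind Frizzled receptors and, in the canonical pathway, the co-receptors Lrp5 and Lrp6. Binding disables a cytoplasmic complex built on Axin that otherwise destroys beta-catenin, and beta-catenin then enters the nucleus and works with the DNA-binding proteins Lef1 and Tcf7. R-spondins keep Frizzled receptors on the cell surface, Sfrp, Frzb and Wif1 proteins bind WNT ligands outside the cell, and Dkk1, Dkk2 and Dkk4 block or modulate Lrp5 and Lrp6. In the facial primordia, epithelium and neural crest mesenchyme exchange WNT, BMP and FGF signals, and Wnt5a, acting through the receptor Ror2, takes part in the outgrowth of the mandible.

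Bmp4 itself read 11.96 and 12.07 (log2 intensity) in controls and 15.27 and 15.31 with overexpression, a 9.68-fold difference (limma, adjusted p = 0.00137), and this checks the labels. The arrays correlated across probes with r = 0.993 within each group and with r between 0.974 and 0.981 between groups. The median intensity was 7.95 and the lower quartile 6.79 on every array, because the values share 1 distribution. All 4 measured markers of the mandibular arch (Dlx5, Dlx6, Hand2 and Pitx1) and all 7 of cranial neural crest mesenchyme lay above the lower quartile in every sample. Of the arch markers, Pitx1 fell 2.42-fold (adjusted p = 0.00573) and 3 did not pass, and the summed linear intensity of the 4 was 3939 and 3369 in controls and 2693 and 2402 with overexpression. The part of these markers in the WNT results was not tested. In whole tissue, fewer cells of a type and less RNA per cell cannot be told apart.

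With Bmp4 overexpression, 14 of the 50 WNT genes fell, 5 rose and 31 did not pass (limma, adjusted p under 0.05 over all 29922 probes). Across all named genes 9.54% fell, 7.39% rose and 16.9% passed in either direction. All counts by role and by marker list given here are to be set beside these shares. The lower genes included 7 ligands, the R-spondin Rspo3, the receptor Fzd3, the antagonists Dkk4, Sfrp1 and Sfrp2, and the nuclear effectors Tcf7 and Lef1. Those that rose were the antagonists Dkk1 and Sfrp5, the receptors Fzd1 and Fzd7, and the ligand Wnt8b. The median log2 fold change of the 50 was -0.17, against 0 over all named genes, and the median size of change without regard to sign was 0.39 log2 units against 0.23. At the study's stated threshold, a 2-fold change with an unadjusted p under 0.05, 5 members were lower (Wnt2, Dkk4, Sfrp2, Sfrp1 and Wnt9a) and 2 higher (Dkk1 and Sfrp5), where 1.76% and 1.56% of named genes passed. The values of the 2 groups did not overlap for 27 members that were lower and 13 that were higher, and for 32.3% and 31% of named genes. All 19 members that passed kept their sign when any 1 array was left out. Their groups did not overlap, so this could not have come out otherwise. Whichever array was left out, however, 1 residual degree of freedom remained and 0 members and 0 probes passed in limma. The lowest adjusted p over all probes was then 0.191 without control replicate 1, 0.138 without control replicate 2, 0.17 without Bmp4 overexpression replicate 1 and 0.155 without its replicate 2, and in that order 22, 25, 21 and 21 members had an unadjusted p under 0.05, as did 20.1%, 26.6%, 22.2% and 24.6% of all probes.

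**Figure D1:**
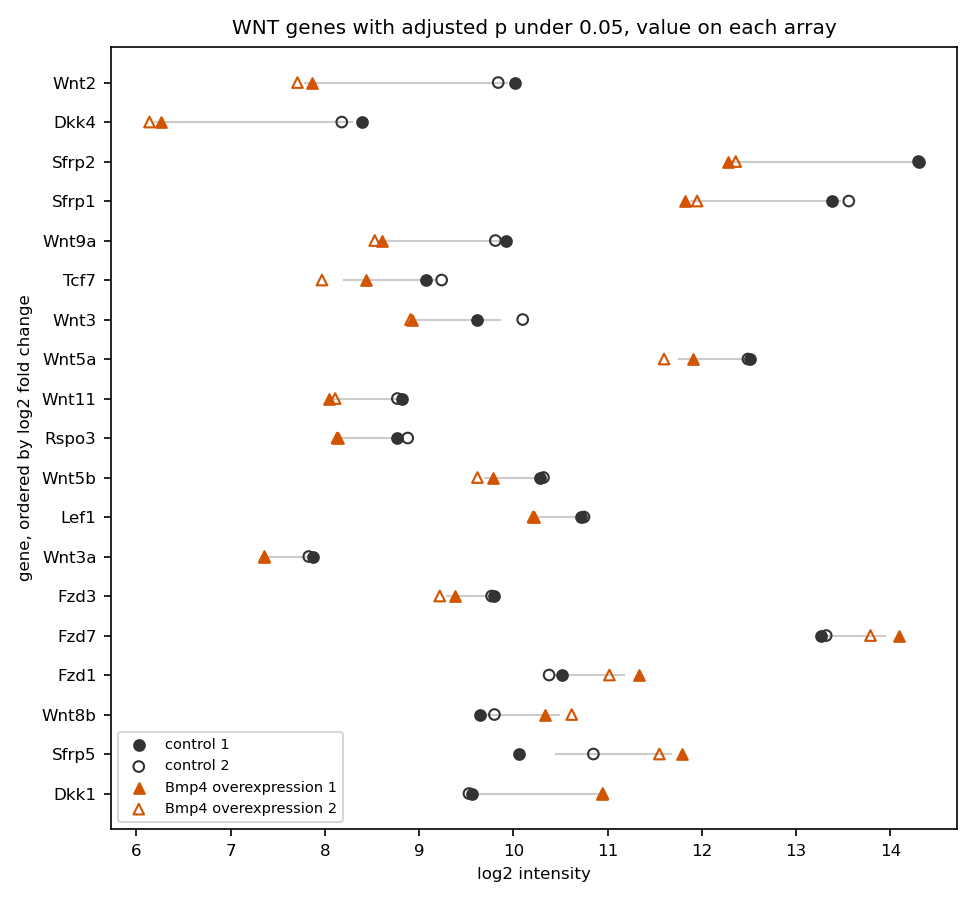
Log2 intensity (x axis) of the 19 WNT genes with an adjusted p under 0.05 (y axis, ordered by log2 fold change) on each of the 2 control arrays (circles) and 2 Bmp4 overexpression arrays (triangles); grey lines join the group means. The groups do not overlap for any of the 19, and the 2 control values of Sfrp5 lie farther apart (10.06 and 10.85) than those of the other genes.

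The 250 bases upstream of the RefSeq start are shown for 5 of the genes that changed most: Dkk1 and Sfrp5, which rose, and Sfrp2, Wnt2 and Wnt9a, which fell. They are from RefSeq on GRCm38.p6, read 5′ to 3′ along the gene. Capitals mark the letters of 2 kinds of motif searched on both strands, the TCF/LEF core (CTTTGAT or CTTTGAA) and the palindrome GGCGCC found in elements bound by BMP-activated Smads.
Dkk1 (chr19:30549497-30549746, minus strand): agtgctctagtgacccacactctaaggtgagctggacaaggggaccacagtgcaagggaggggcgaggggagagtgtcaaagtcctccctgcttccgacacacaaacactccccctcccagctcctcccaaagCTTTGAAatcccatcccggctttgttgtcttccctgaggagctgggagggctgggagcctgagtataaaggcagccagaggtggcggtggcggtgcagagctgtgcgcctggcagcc
Sfrp5 (chr19:42202253-42202502, minus strand): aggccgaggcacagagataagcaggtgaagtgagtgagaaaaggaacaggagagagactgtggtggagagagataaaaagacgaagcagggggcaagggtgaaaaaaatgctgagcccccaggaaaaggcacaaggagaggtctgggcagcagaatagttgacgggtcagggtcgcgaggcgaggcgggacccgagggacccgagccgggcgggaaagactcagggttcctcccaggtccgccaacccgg
Sfrp2 (chr3:83766071-83766320, plus strand): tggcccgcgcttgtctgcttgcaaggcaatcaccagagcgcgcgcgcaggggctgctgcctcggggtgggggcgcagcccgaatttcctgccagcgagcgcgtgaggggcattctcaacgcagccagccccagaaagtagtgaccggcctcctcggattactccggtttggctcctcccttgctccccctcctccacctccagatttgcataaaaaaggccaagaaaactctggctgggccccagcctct
Wnt2 (chr6:18030446-18030695, minus strand): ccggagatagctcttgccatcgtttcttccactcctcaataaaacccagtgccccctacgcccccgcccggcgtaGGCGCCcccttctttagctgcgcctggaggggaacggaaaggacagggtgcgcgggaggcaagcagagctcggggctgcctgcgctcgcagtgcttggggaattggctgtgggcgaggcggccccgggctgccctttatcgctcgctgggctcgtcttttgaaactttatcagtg
Wnt9a (chr11:59306680-59306929, plus strand): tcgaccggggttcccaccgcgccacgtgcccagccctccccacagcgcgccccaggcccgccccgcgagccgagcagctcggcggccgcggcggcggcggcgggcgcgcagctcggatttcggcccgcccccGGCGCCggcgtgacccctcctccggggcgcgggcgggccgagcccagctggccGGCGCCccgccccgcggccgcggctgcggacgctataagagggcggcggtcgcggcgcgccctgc
The Dkk1 window held CTTTGAA, beginning 117 bases upstream of the start, and no GGCGCC. Wnt2 held GGCGCC once, from 175 bases upstream, and Wnt9a held it at 118 and 65 bases upstream, while Sfrp5 and Sfrp2 held neither motif.

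Of the 50 members, 32 had an entry in the promoter table, with 40 windows among them. Dkk4 and Sfrp1, which also changed strongly, were among those without an entry, so their windows are not shown. A GGCGCC was present in 6 of the 9 lower genes with an entry (Wnt2, Wnt9a, Wnt11, Wnt3a, Lef1 and Tcf7), in 0 of the 5 that rose and in 6 of the 18 that did not pass. By window it was found in 8 of 16, 0 of 5 and 6 of 19, against 9.59% of all 32851 windows of this length in the table. Some genes, Lef1 among them, had several windows, so the windows are not separate genes. The member windows were rich in G and C, with a median of 66.6% against 52.4% over all windows. By call the median was 65.4% for lower genes, 59.6% for those that rose and 71.6% for those that did not pass. The part of base composition in these counts was not tested. The TCF/LEF core was present in 7.5% of member windows (Dkk1, Wnt11 and Wnt5b) and in 7.48% of all windows. A match of letters is a description and not a binding site.

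Among the 19 WNT ligands, 7 fell (36.8%), 1 rose (5.26%) and 11 did not pass, where 9.54% of all named genes fell and 7.39% rose. Wnt2, a canonical ligand known in the mouse for its part in specifying the lung, and the antagonist Dkk4 had the largest fold changes of the 50 members. The Wnt2 probe (mMC004704) read 10.02 and 9.84 in controls and 7.86 and 7.71 with Bmp4 overexpression. Wnt2 was 4.42-fold lower (log2 fold change -2.15 ± 0.12, SE; limma, adjusted p = 0.00235), with a gap between the groups far wider than the spread within either. Wnt9a, a ligand of developing joints, read 9.92 and 9.81 in controls and 8.61 and 8.53 with overexpression (mMC010000). That is a 2.45-fold fall (log2 fold change -1.30 ± 0.11, SE; adjusted p = 0.005), and the groups again stood clear of each other. A second Wnt9a probe lay below the lower quartile on every array, at 6.63 and 6.58 in controls and 6.55 and 6.44 with overexpression, where the array has little range, and it did not pass.

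Wnt3, a canonical ligand required in the mouse for the primitive streak, read 9.62 and 10.10 in controls and 8.92 and 8.91 with overexpression. Control replicate 2 was the highest sample, and the 1.93-fold fall passed (log2 fold change -0.95 ± 0.17, SE; adjusted p = 0.0271). Wnt3a, known for its role in the growth of the body axis, was 7.88 and 7.83 in controls and 7.35 and 7.36 with overexpression. The fall of Wnt3a was 1.41-fold (log2 fold change -0.50 ± 0.10, SE; adjusted p = 0.0326), small in size but larger than the differences of 0.05 or less within the groups. In the RefSeq gene table the spans of Wnt3 and Wnt9b overlap, and Wnt9b, known for lip closure and kidney formation, had a log2 fold change of 0 at its own probe.

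The ligands best known for signalling without beta-catenin, Wnt5a, Wnt5b and Wnt11, all fell. Wnt5a read 12.51 and 12.49 in controls and 11.91 and 11.60 with overexpression at its brightest probe (mMC003764), a 1.68-fold fall (log2 fold change -0.75 ± 0.14, SE; adjusted p = 0.0265). Its second probe (mMR030048) gave 10.46 and 10.39 against 9.26 and 9.44, a 2.11-fold fall (adjusted p = 0.00886). Wnt5a was the only one of the 11 genes with 2 probes for which both passed. Wnt5b, its close relative, was 10.28 and 10.32 in controls and 9.79 and 9.62 with overexpression, a 1.51-fold fall (log2 fold change -0.60 ± 0.11, SE; adjusted p = 0.0284). Wnt11, which guides cell movements in the early embryo, read 8.82 and 8.77 against 8.04 and 8.11, a 1.65-fold fall (log2 fold change -0.72 ± 0.10, SE; adjusted p = 0.0155). The result for Wnt11 rests on 1 probe: the other read 7.11 and 7.0 in controls and 6.90 and 7.27 with overexpression, so that its groups overlapped.

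Wnt8b, a ligand known from the embryonic forebrain, was the only ligand that rose. It read 9.65 and 9.80 in controls and 10.34 and 10.62 with overexpression, a 1.69-fold difference (log2 fold change 0.76 ± 0.14, SE; adjusted p = 0.0264). The 4 measured neuronal and glial markers gave a summed linear intensity of 25230 and 35320 in controls and 47640 and 49320 with overexpression, with 0 of 4 passing in limma. Elavl3 alone made up 89.9% to 95.3% of that sum, and the other 3 genes together gave 2537 and 2326 in controls and 2567 and 2334 with overexpression. At an unadjusted p under 0.05, Elavl3 and Stmn2 were higher and Sox10, a glial and neural crest marker, was lower. Their part in the Wnt8b result was not tested. None of the 4 lay below the lower quartile on every array.

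The other ligands did not pass. Wnt2b, Wnt7a and Wnt10a had log2 fold changes of -0.47, -0.35 and -0.33 and adjusted p-values of 0.0819, 0.0881 and 0.101. Wnt7b, Wnt4, Wnt8a, Wnt10b, Wnt1, Wnt16 and Wnt9b had log2 fold changes between -0.18 and 0. Wnt6, an ectodermal ligand, had 0.17, with a 95% interval from -0.10 to 0.43. Wnt8a lay below the lower quartile in all 4 samples, and Wnt10a in both overexpression samples, so a change there could be compressed. The second probe of Wnt10b passed, with a log2 fold change of -0.45 (adjusted p = 0.0499), whereas the brightest gave -0.12. That second probe lay below the lower quartile on 3 of the 4 arrays, where the scale is compressed.

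Several of these ligands, among them Wnt3, Wnt4, Wnt6 and Wnt10b, are made in facial epithelium. Of 10 epithelial markers, 4 rose, among them Krt8, Krt18 and Cdh1 with log2 fold changes of 1.23, 1.2 and 0.92, and 2 fell, among them Krt14 with -0.79. The summed linear intensity of the 10 was 40850 and 42640 in controls and 35270 and 36790 with overexpression, and no marker of the list was below the lower quartile on every array. Krt14 alone made up 45.2% to 69.3% of the sum, and the other 9 together gave 13670 and 13110 in controls and 19340 and 19950 with overexpression. Epithelial markers thus went both ways, and their part in the ligand results was not tested. Of the 7 mesenchymal markers, Prrx2 rose, Twist1 and Col1a1 fell, and 4, Prrx1 among them, did not pass. Their summed linear intensity was 93930 and 94740 in controls and 84920 and 79130 with overexpression, and its part in the results was not tested either.

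**Figure D2:**
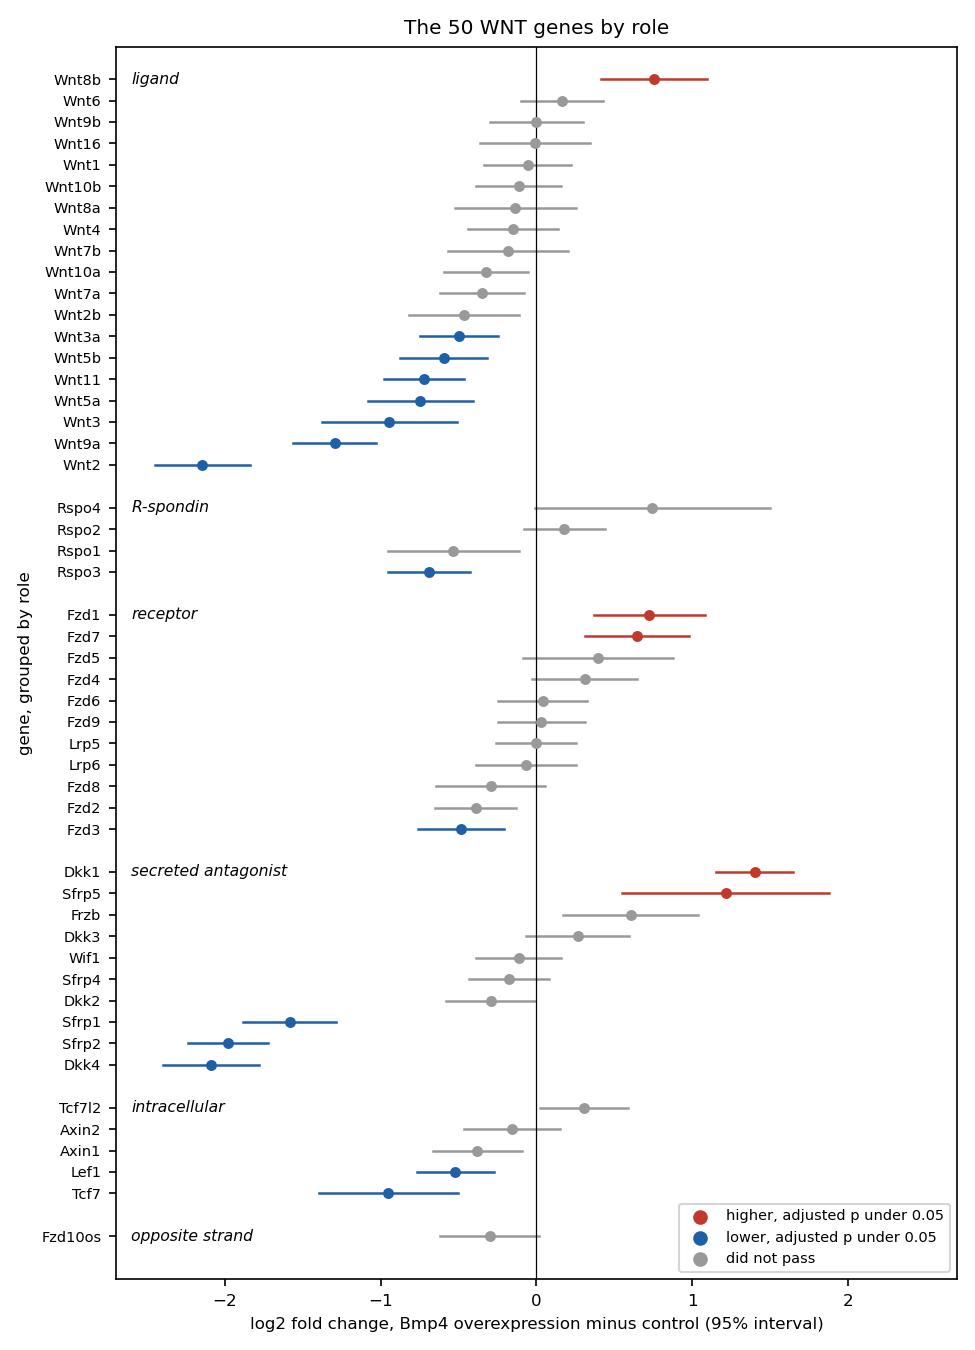
Log2 fold change of the 50 WNT genes, Bmp4 overexpression minus control (x axis), grouped by role (y axis), with 95% intervals from the fitted model and 2 arrays per group. Red and blue mark genes higher or lower at an adjusted p under 0.05, and the antagonists span the widest range, from -2.09 for Dkk4 to 1.40 for Dkk1.

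Of the 4 R-spondins, 1 fell and 3 did not pass. Rspo3, known in the mouse for placental and vascular development, read 8.77 and 8.88 in controls and 8.14 and 8.13 with overexpression, a 1.61-fold fall (log2 fold change -0.69 ± 0.10, SE; adjusted p = 0.0177). Rspo2, which is needed for limb and facial development, was 12.99 and 12.89 against 13.11 and 13.13, with a log2 fold change of 0.18 (95% interval -0.08 to 0.44; adjusted p = 0.290). A 2-fold change of Rspo2 at this probe lay outside the interval, which reflects the spread between arrays alone. Rspo4, the R-spondin of nail formation, varied most of the 4 between arrays of a group, at 11.73 and 12.45 in controls and 13.15 and 12.52 with overexpression. Its log2 fold change of 0.75 had a 95% interval from -0.01 to 1.5 and did not pass (adjusted p = 0.155). Rspo1 had a log2 fold change of -0.54 (adjusted p = 0.09).

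Among the 11 receptor and co-receptor genes, Fzd1 and Fzd7 rose (18.2%), Fzd3 fell (9.09%) and 8 did not pass. Across all named genes 7.39% rose and 9.54% fell, so the share of receptors that fell was near that of all genes. Fzd7, a broadly expressed Frizzled receptor, read 13.27 and 13.32 in controls and 14.09 and 13.79 with overexpression, a 1.56-fold rise (log2 fold change 0.65 ± 0.13, SE; adjusted p = 0.0356). Fzd1, of the same Frizzled subfamily, read 10.52 and 10.38 against 11.33 and 11.02, a 1.65-fold rise (log2 fold change 0.73 ± 0.14, SE; adjusted p = 0.0308). In both genes the overexpression samples differed from each other by about 0.3 log2 units and both lay above the controls. Fzd3, a receptor of axon guidance and planar cell polarity, read 9.80 and 9.77 in controls and 9.38 and 9.22 with overexpression, a 1.40-fold fall (log2 fold change -0.49 ± 0.11, SE; adjusted p = 0.0433). When the arrays were centred on housekeeping genes instead, Fzd3 did not pass (adjusted p = 0.0719).

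The remaining Frizzled genes gave log2 fold changes between -0.39 for Fzd2 (adjusted p = 0.0613) and 0.40 for Fzd5 (adjusted p = 0.220). Fzd8, Fzd9, Fzd6 and Fzd4 lay within that range, and the second Fzd5 probe pointed the other way, at -0.25. The co-receptor Lrp5 read 9.51 and 9.60 in controls and 9.55 and 9.55 with overexpression, and its 95% interval ran from -0.26 to 0.25 log2 units. Lrp6 was 10.77 and 10.97 against 10.71 and 10.90, with a 95% interval from -0.39 to 0.26. Their groups overlapped, and a change of 1.5-fold or more lay outside the interval of each co-receptor at its brightest probe. These intervals reflect the spread between arrays alone. Fzd10os had a log2 fold change of -0.30 (adjusted p = 0.170).

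The 10 secreted antagonists went in opposite directions, with 3 lower, 2 higher and 5 that did not pass, where 9.54% of all named genes were lower and 7.39% higher. Sfrp2 and Sfrp1, which bind WNT ligands through a domain like that of the Frizzled receptors, both fell. Sfrp2 (mMC011362) read 14.30 on both control arrays and 12.28 and 12.36 with overexpression, a 3.94-fold fall (log2 fold change -1.98 ± 0.10, SE; adjusted p = 0.002). Sfrp1 (mMC020953) read 13.38 and 13.56 in controls and 11.82 and 11.95 with overexpression, a 3.00-fold fall (log2 fold change -1.59 ± 0.12, SE; adjusted p = 0.00436). For both, the groups lay over 1.4 log2 units apart. The second Sfrp1 probe (mMC022587) showed the same sign with a smaller gap, at 10.65 and 10.80 against 10.39 and 10.18, and did not pass (adjusted p = 0.0723).

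Sfrp5, another member of the same family, rose. It read 10.06 and 10.85 in controls and 11.79 and 11.55 with overexpression (mMC014035), a 2.32-fold rise with the widest error of the 19 genes that passed (log2 fold change 1.22 ± 0.27, SE; adjusted p = 0.0394). The spread came from the controls: the log2 fold change was 0.82 without control replicate 1 and 1.61 without control replicate 2. Frzb, a relative first known from cartilage, read 11.89 and 12.34 against 12.80 and 12.64 and did not pass (log2 fold change 0.61; adjusted p = 0.0733). Sfrp4 had a log2 fold change of -0.18 with both overexpression samples below the lower quartile. Wif1, which binds WNT ligands by a domain of its own, lay below the lower quartile in all 4 samples, so nothing can be said of its direction.

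Dkk1 and Dkk4, which both bind the co-receptors Lrp5 and Lrp6, moved apart. Dkk1, needed in the mouse for formation of the head, read 9.56 and 9.53 in controls and 10.94 and 10.95 with overexpression (mMC015898). It rose 2.64-fold (log2 fold change 1.40 ± 0.10, SE; adjusted p = 0.00382), and replicates of a group differed by 0.03 or less. Dkk4, an antagonist of ectodermal placodes, read 8.40 and 8.18 in controls and 6.26 and 6.14 with overexpression (mMC017469), a 4.26-fold fall (log2 fold change -2.09 ± 0.12, SE; adjusted p = 0.00267). The lower Dkk4 values were under the lower quartile, where the scale is compressed. Neither Dkk2 (log2 fold change -0.30, adjusted p = 0.142) nor Dkk3 (0.27, adjusted p = 0.231) passed. Dkk3 differs from the rest in that it is not known to block Lrp6.

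Of the 5 intracellular members, the nuclear effectors Tcf7 and Lef1 fell and the other 3 did not pass. Tcf7 read 9.07 and 9.24 in controls and 8.44 and 7.97 with overexpression, a 1.93-fold fall (log2 fold change -0.95 ± 0.18, SE; adjusted p = 0.0284), and Bmp4 overexpression replicate 2 was the lowest sample. The RefSeq spans of Tcf7 and of Wnt5b overlap those of the neighbouring genes Skp1 and Fbxl14, and which part of a gene a probe reads was not tested. Lef1, which is required for tooth formation in the mouse and is itself a frequent target of the pathway, read 10.72 and 10.75 against 10.22 and 10.21. This 1.43-fold fall passed at the brightest probe (log2 fold change -0.52 ± 0.10, SE; adjusted p = 0.0295), and the second probe did not pass, at a log2 fold change of -0.23 (adjusted p = 0.190). Tcf7l2, another member of the TCF family, had 0.31 at its brightest probe (adjusted p = 0.128) and -0.12 at its second.

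Axin2, the feedback inhibitor most often used to read out canonical signalling, read 10.47 and 10.31 in controls and 10.33 and 10.14 with overexpression. The groups overlapped, and the log2 fold change of -0.16 had a 95% interval from -0.46 to 0.15 (adjusted p = 0.438). A change of Axin2 beyond 1.5-fold in either direction therefore lay outside the interval, which reflects the spread between arrays alone. Axin1, the scaffold of the destruction complex, read 12.66 and 12.84 in controls and 12.34 and 12.40 with overexpression, with a log2 fold change of -0.38 (adjusted p = 0.081).

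**Figure D3:**
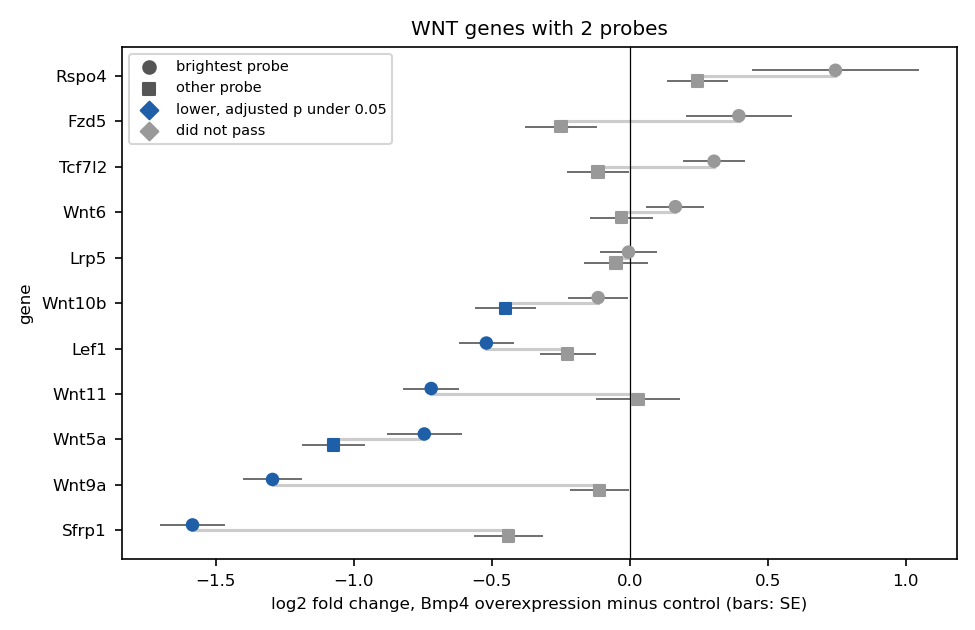
Log2 fold change, Bmp4 overexpression minus control (x axis), of the 11 WNT genes with 2 probes (y axis), for the brightest probe (circles) and the other probe (squares), with standard errors of the fit. Blue marks an adjusted p under 0.05: both probes passed for Wnt5a, the brightest alone for Sfrp1, Wnt9a, Wnt11 and Lef1, and the other probe alone for Wnt10b.

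Beyond these 50 genes, a list of 60 further genes of WNT secretion, reception, transduction and response held 57 on the array, of which 8 fell, 7 rose and 42 did not pass. Across all named genes 9.54% fell and 7.39% rose, the shares beside which the counts by list below are to be set. The median log2 fold change of the 57 was 0.01. The largest fall was that of Nkd2, an inhibitor that binds Dishevelled, which read 10.58 and 10.30 in controls and 8.73 and 8.76 with overexpression (3.24-fold lower; adjusted p = 0.00451). Its relative Nkd1 did not pass, with a log2 fold change of 0.31. Ror2, the receptor through which Wnt5a acts, averaged 11.96 ± 0.06 (SD, n = 2) in controls and 10.39 ± 0.25 with overexpression, a 2.97-fold fall (adjusted p = 0.00655). Ror1 had -0.52 and did not pass (adjusted p = 0.109). Gpc4, a cell-surface glypican that helps WNT ligands reach their receptors, fell 2.96-fold (adjusted p = 0.00557), whereas Gpc3 had a log2 fold change of 0.47 (adjusted p = 0.049).

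Of the genes for secretion and inactivation of the ligands, Wls, the carrier that takes WNT proteins to the cell surface, rose 1.71-fold (adjusted p = 0.0425). Notum, an enzyme that removes the lipid from WNT ligands, rose 1.93-fold, from an average of 9.05 ± 0.28 (SD, n = 2) to 9.99 ± 0.01 (adjusted p = 0.0206). Apcdd1, a membrane-bound inhibitor, was 12.20 and 11.67 in controls and 11.13 and 10.74 with overexpression, a 2.00-fold fall (adjusted p = 0.0399). None of the 9 measured genes of the destruction complex and beta-catenin passed in limma, and 1 of the 9, Csnk1a1, had an unadjusted p under 0.05. Ctnnb1, which encodes beta-catenin, had a log2 fold change of 0.40 with a 95% interval from -0.0023 to 0.79 (adjusted p = 0.153).

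Among nuclear partners 3 of 9 rose: the co-repressor genes Tle2 and Tle4, with log2 fold changes of 1.07 and 0.66, and Bcl9l, a beta-catenin co-factor, with 0.63. Of 9 planar polarity genes, Prickle2, Vangl1 and Celsr1 fell and Prickle1 rose, with 5 that did not pass, and Prickle2 had a log2 fold change of -0.70. Ccnd1, a cyclin often listed as a WNT target and also driven by other signals, read 14.34 and 14.39 in controls and 13.17 and 13.35 with overexpression, a 2.15-fold fall (adjusted p = 0.00842). The further targets Myc and Sp5 did not pass (log2 fold changes 0.02 and -0.19), and Sp5 lay below the lower quartile in all 4 samples. Genes often read as targets of the pathway went different ways. Lef1 (at its brightest probe), Tcf7, Apcdd1 and Ccnd1 fell, as did Nkd2, the relative of Nkd1. Dkk1 and Notum rose, and Axin2, Nkd1, Myc and Sp5 did not pass. This grouping was not one of the planned lists and is not complete. It leaves out Dkk4, which fell, and Lgr5 and Rnf43, which did not pass.

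**Figure D4:**
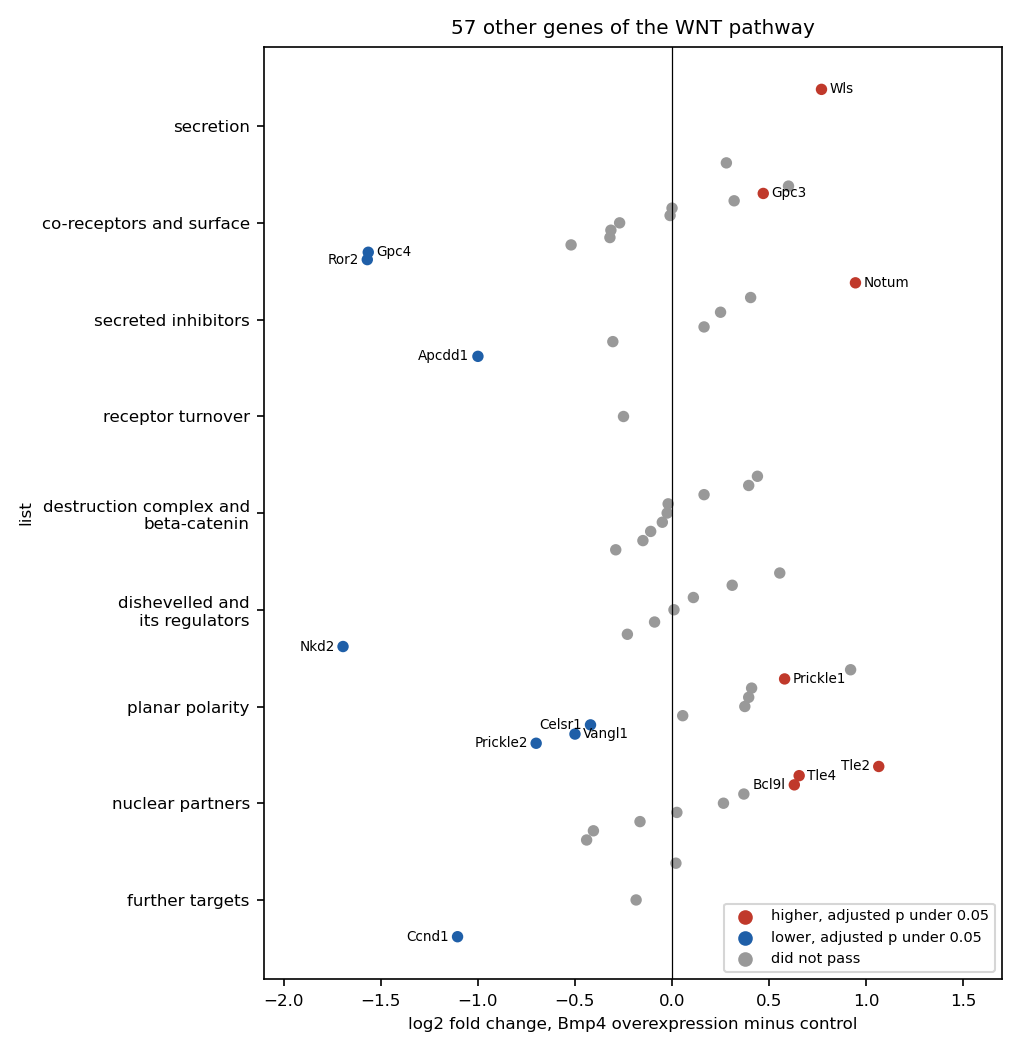
Log2 fold change, Bmp4 overexpression minus control (x axis), of 57 other WNT pathway genes in 9 lists (y axis), 1 point per gene. Genes with an adjusted p under 0.05 are named and coloured, with 7 higher and 8 lower, and no gene of the destruction complex list is among them.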

How the data were processed

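Total RNA of whole E11.5 mandibles was amplified with aminoallyl nucleotides and labelled with Cy5 (per the labels' protocols). The deposited log2 intensities cover 29922 probes and 4 arrays. Their sorted values are identical between arrays (largest difference 0), so they had been quantile-normalised, which hides any general shift. The scanner and the background correction are not given in the sources here. The number of arrays limits the precision. Probe names came from platform annotation, with symbols updated through the GRCm38.p6 RefSeq gene table (17558 probes current, 3410 by synonym, 52 unmatched).

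Samples were grouped by title. All probes entered 1 two-sided fit (limma 3.58.1, R 4.3.3, lmFit then eBayes, no covariate, no filter), with Benjamini-Hochberg adjustment over all probes, and 3.59 prior and 2 residual degrees of freedom. The test was checked on simulated data with independent noise, which does not bear on whether the spread between arrays is technical. An exact permutation test of 2 against 2 cannot give a p below 0.333. Intervals are 95% intervals of the fit. Members and lists were chosen with earlier results of these data known, so no list test was run. Every member is named at least once. Values by array are given for those that passed, for the 2-fold changes and for Axin2, Lef1, Tcf7, Lrp5 and Lrp6. Of the other pathway genes that passed, the 12 with the smallest p were to be named, and Gpc3, Wls and Celsr1 were added after their values were seen, as were the genes named that did not pass. Marker lists of endothelium (0 of 5 passed), muscle (0 of 5), blood (1 of 4, Alas2 lower) and myeloid cells (0 of 4) were also read. Their summed linear intensity for endothelium was 5476 and 5278 in controls and 6165 and 6414 with overexpression. For myeloid cells it was 1071 and 1108 against 1374 and 1393. Muscle gave 1482 and 1296 against 1330 and 1559, and blood 203400 and 197100 against 195300 and 191600. The part of these lists in the WNT results was not tested. Promoter windows came from RefSeq.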

Additional observations from a re-analysis of the deposited data

How the results depend on the processing

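Housekeeping centring (7 genes) shifted single arrays by -0.0707 to 0.0750 log2 units and the difference between groups by 0.0043. Member counts stayed within 1.5 times those reported with this centring, log2 of the linear value plus 50 and both filters on dim probes. They also did with a variance trend, a robust prior and the mean of a gene's probes. Quantile normalisation applied again could change nothing, since the values already shared 1 distribution. With second-brightest probes, 5 were higher and 11 lower, but only 11 of the 50 members have a second probe. The rest kept their brightest. None of the 5 that rose has a second probe, so that count was fixed. Among lower genes with 2 probes, Wnt5a alone passed at its second, while Sfrp1, Wnt9a, Wnt11 and Lef1 did not. Wnt10b passed only at its second. Fzd3 did not pass after housekeeping centring, and Wnt11 did not pass with the mean of its probes (adjusted p = 0.0869). With the intensity trend 6 members rose and 16 fell. Without probes below the median, 11 of the other pathway genes rose. At the 2-fold threshold with an unadjusted p under 0.05, 364 probes were higher and 422 lower, with 2 and 5 members and 1 and 5 other pathway genes. Wnt11 had a log2 fold change of 0.03 at its second probe. Calls of probes, members and other pathway genes were not kept when 1 array was left out in turn, with 1 residual degree of freedom remaining. Bmp4 then ranged from 3.22 to 3.33, Lrp5 from -0.05 to 0.04 and Lrp6 from -0.165 to 0.035 log2 units, and the median of the members from -0.20 to -0.18. Same-numbered arrays did not deviate together (correlation of deviations -0.07), so the numbers were not taken as pairs. With the replicate block 1 residual degree of freedom remained and limma called 0 probes, 0 members and 0 other pathway genes in either direction, with 28 members (56%) and 29.2% of all probes at an unadjusted p under 0.05. The log2 fold change of Bmp4 was then 3.28 (adjusted p = 0.0745). Values below the lower quartile and near the top of the scale are compressed and limit what can be seen there.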
